A study of Homo sapiens with 24 samples.

Results

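TNF receptors and death receptors are cell surface or secreted proteins that bind ligands of the TNF family, and 9 of them together with CASP8, the caspase that starts the killing signal of several of them, were followed by RNA-seq in the human chondrocyte line T/C-28a2. The 10 genes (TNFRSF11B, TNFRSF1A, TNFRSF1B, TNFRSF10A, TNFRSF10B, TNFRSF10D, TNFRSF12A, TNFRSF21, FAS and CASP8) were chosen by symbol from the 62703 gene identifiers of the count files, and all 10 were among the 16600 genes with enough counts to be tested. The study asked how WNK2, a kinase of the WNK family that takes part in the response to osmotic stress, bears on chondrocytes kept in hyperosmotic medium. There were 24 libraries, 4 in each of 6 groups. WT Ctr and WT Sor were cells with unedited WNK2 kept for 7 days in isotonic medium (Ctr) or in medium with 100 mM sorbitol (Sor). WNK2 trans Ctr and WNK2 trans Sor were WT cells transfected with a WNK2 plasmid before the same media, and their controls were untransfected cells, with no empty plasmid named. WNK2- Ctr and WNK2- Sor cells carried a CRISPR deletion of exon 2 of WNK2, which holds the start codon, and were isolated as clones. The study's methods describe the deletion in the cDNA of 1 named clone, and the sources used here do not say whether all WNK2- libraries came from it, so a difference from WT cells is a difference from those clones.

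In this family a ligand made of several chains draws receptor chains together on the membrane. Receptors with a death domain inside the cell (TNFRSF1A, TNFRSF10A, TNFRSF10B, TNFRSF21 and FAS) can then recruit adaptor proteins, which either bring in CASP8 and lead to apoptosis or pass the signal to NF-kB and MAP kinases. Receptors without such a domain (TNFRSF1B and TNFRSF12A) use TRAF proteins, and decoy receptors (the secreted TNFRSF11B and the membrane-bound TNFRSF10D) bind ligand and pass on no complete death signal. In cartilage these receptors are known for their part in the inflammatory and catabolic responses of chondrocytes and, for TNFRSF11B (osteoprotegerin), in the control of bone resorption through the ligand TNFSF11 (RANKL).

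WNK2 itself, read as a check of the labels, went against 2 of them, WT Sor and WNK2 trans Ctr. Normalized counts, which are read counts divided by the library's effective size and brought to a common scale, were 1441 to 3409 for WNK2 in libraries labelled WT Ctr and 2245 to 3793 in those labelled WNK2 trans Sor. They were 283 to 319 in libraries labelled WT Sor (mean 302.5, beside 2520 in WT Ctr), 311 to 419 in the WNK2- groups, and 183 to 296 in libraries labelled WNK2 trans Ctr. Libraries labelled as unedited cells in sorbitol thus had no more WNK2 RNA than the WNK2- libraries, and those labelled WNK2 trans Ctr showed no excess of it. The range of WNK2 trans Sor overlapped that of WT Ctr, so the check does not show the transfection there either. The paper's supplement differs from these counts. It lists WNK2 in WT Sor and in isotonic transfected cells near or above its WT control, with no significant change by sorbitol or transfection. Counts per gene cover all exons, so they do not read the deletion of exon 2 itself. Every group name below, and each direction drawn from it, stands for the libraries so labelled, and this bears on all comparisons with WT Sor or WNK2 trans Ctr, both interactions included. Total counts ran from 14153002 to 25664619 reads per library. Of 14 chondrocyte markers, 8 to 9 reached 1 CPM (the library's counts scaled to a common total) in the WT and WNK2 trans groups and 4 to 6 in the WNK2- groups, and SOX9 was listed at 0 in every group. Their summed level was 104 to 161 CPM in the former and 28.5 to 34.0 CPM in the latter, but most of it was HAPLN1 in several groups (117.5 CPM in WNK2 trans Sor). Without HAPLN1 the sum was 19.6 to 47.8 CPM in WT Ctr, 42.5 to 45.3 in WT Sor and 55.9 to 68.0 in WNK2 trans Ctr, and it was 9.78 to 20.2 in WNK2 trans Sor, beside 14.6 to 20.6 CPM for WNK2- cells without and 10.9 to 12.8 CPM with sorbitol. Of 9 leukocyte markers 2 to 3 reached 1 CPM, CD68 was listed at 0 in every group, and the sum was 16.2 to 24.9 CPM in WNK2 trans Ctr, mostly CD14, and 6.66 to 17.7 CPM in the other groups. RNA from fewer cells of a kind and less RNA per cell cannot be told apart in such bulk samples.

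Levels between genes can be compared only per length. On the scale of CPM per kilobase of exon, TNFRSF12A was the most abundant of the 10, with group means of 117 to 165. TNFRSF1A followed with 27.6 to 82.7, TNFRSF21 with 32.5 to 64.7 and TNFRSF11B with 23.0 to 54.7. TNFRSF10B (15.6 to 27.6) and its decoy relative TNFRSF10D (17.9 to 23.7) were in the middle. CASP8 had 4.43 to 4.88, TNFRSF10A 3.07 to 10.5 and TNFRSF1B 1.08 to 2.83, and FAS was the lowest with 0.788 to 2.25. The raw counts behind the lowest 2 were small, 54 to 246 reads for FAS and 45 to 235 for TNFRSF1B in a library.

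**Figure D1:**
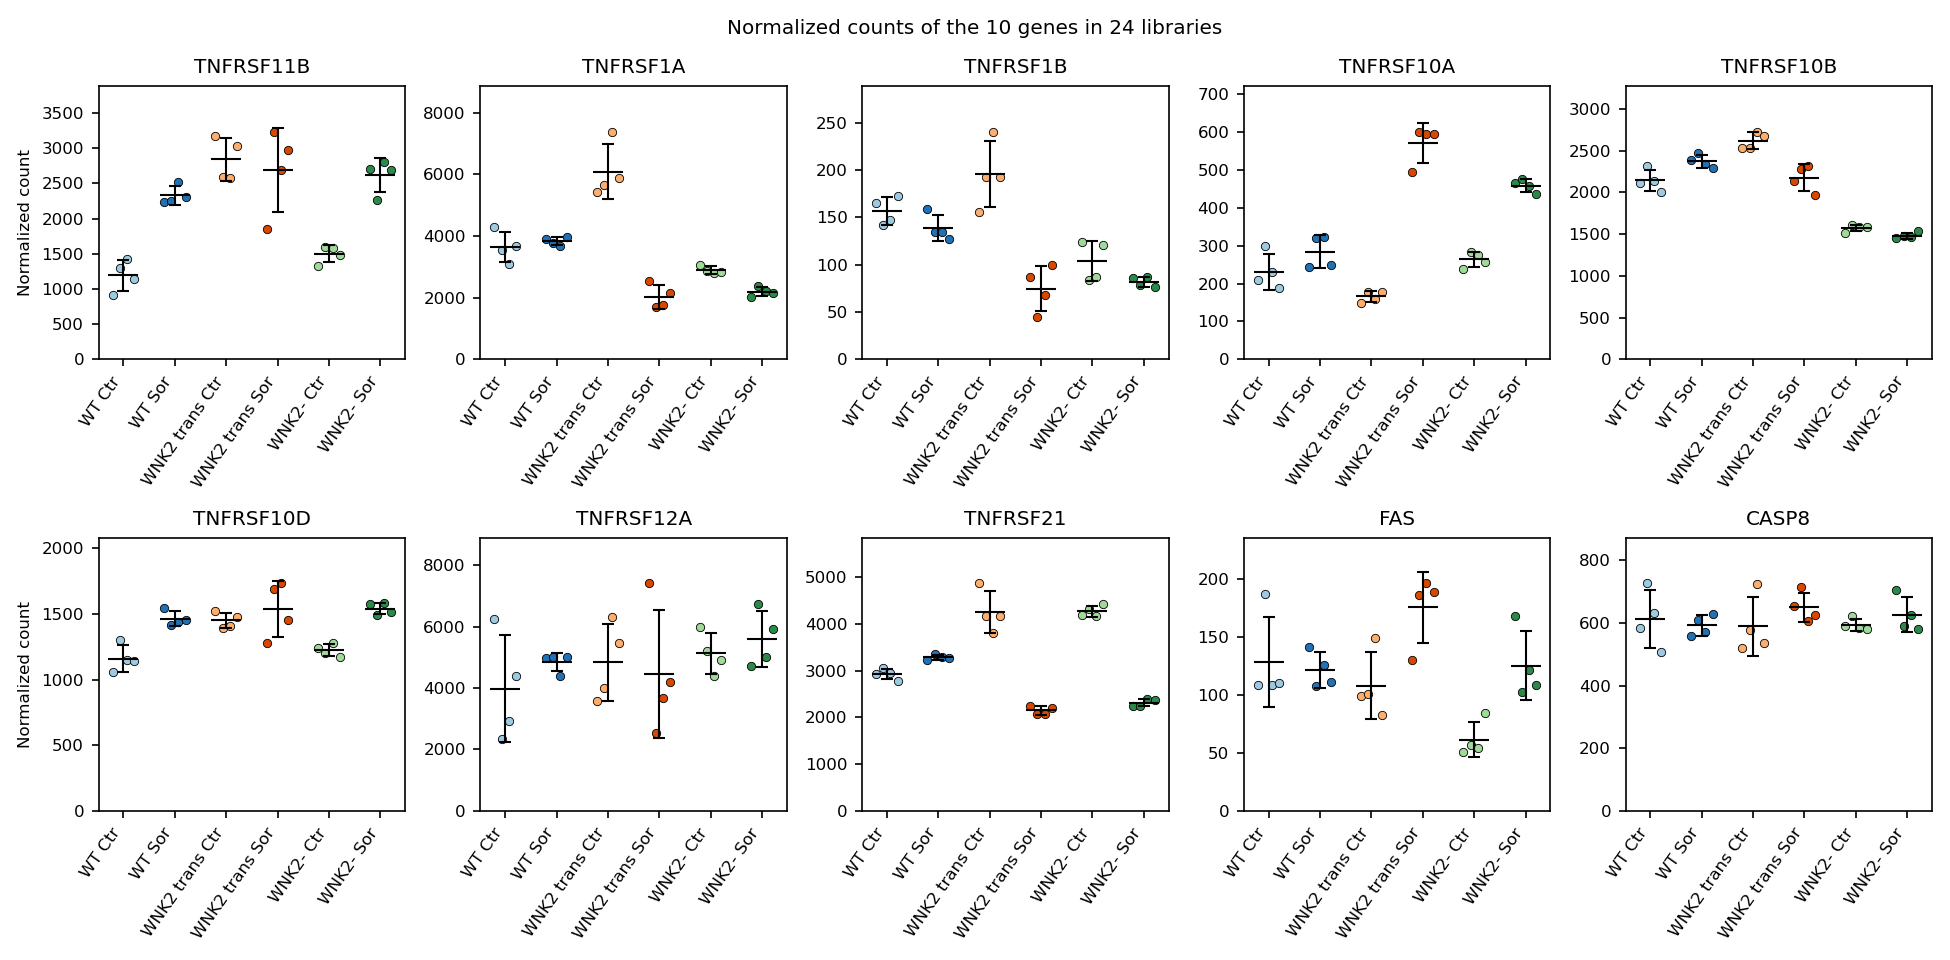
Normalized counts (y axis, from 0) of the 10 genes in each of 24 libraries (points), by group (x axis), with the mean (wide bar) and SD (error bar) of 4 libraries. TNFRSF21 averages 4269 in WNK2- Ctr and 4252 in WNK2 trans Ctr and 2312 and 2146 in the matching Sor groups, while TNFRSF12A spreads over much of its range inside single groups.

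The first question was what 7 days in sorbitol did to each kind of cells. In libraries labelled WT 2 of the 10 genes rose and none fell: the decoy receptors TNFRSF11B and TNFRSF10D. In WNK2- cells 4 rose (TNFRSF11B, TNFRSF10D, TNFRSF10A and FAS) and 2 fell (TNFRSF1A and TNFRSF21). In libraries labelled WNK2 trans 2 rose (TNFRSF10A and FAS) and 4 fell (TNFRSF1A, TNFRSF1B, TNFRSF10B and TNFRSF21). Calls are those of edgeR's quasi-likelihood test with a Benjamini-Hochberg adjusted p under 0.05 over all tested genes, and the same test called 24.1% of all genes in WT cells (11.4% higher, 12.7% lower). It called 14.9% in WNK2- cells (8.25% higher, 6.64% lower) and 48.0% in those labelled WNK2 trans (24.3% higher, 23.7% lower). Against these shares, 2, 6 and 6 of 10 genes were called. The median log2 fold change over the 10 genes was 0.155 in WT, 0.10 in WNK2- and -0.10 in WNK2 trans libraries, beside 0.035, 0.005 and 0.006 over all tested genes.

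The second question was how the cells differed in the same medium. In isotonic medium WNK2- cells had more TNFRSF21 and less TNFRSF1A, TNFRSF1B, TNFRSF10B and FAS than WT cells, and in sorbitol they had more TNFRSF10A and less TNFRSF1A, TNFRSF1B, TNFRSF10B and TNFRSF21. These are 5 of 10 genes in each medium, where 42.1% of all genes were called without sorbitol (20.7% higher, 21.5% lower) and 46.3% with it (23.7% higher, 22.7% lower). Libraries labelled WNK2 trans Ctr had more TNFRSF11B, TNFRSF1A, TNFRSF21, TNFRSF10D and TNFRSF10B and less TNFRSF10A than WT Ctr, 6 of 10 genes against 12.5% of all genes (5.57% higher, 6.98% lower). Those labelled WNK2 trans Sor had more TNFRSF10A and less TNFRSF1A, TNFRSF1B and TNFRSF21 than WT Sor, 4 of 10 against 31.7% (16.1% higher, 15.5% lower). With only the WT Ctr and WNK2 trans Ctr libraries in the fit, 3 of the 6 calls remained in the former comparison, of TNFRSF11B, TNFRSF1A and TNFRSF21. That fit called 747 genes in all, beside 2082 in the fit of 24 libraries. Comparisons with the same group share its libraries, so their calls are not independent of each other.

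The third question was whether sorbitol acted differently on the cells, which an interaction tests as the sorbitol change in WNK2- or WNK2 trans libraries minus that between the libraries labelled WT Sor and WT Ctr. For genotype it was called for 2 of the 10 genes, TNFRSF21 (lower) and FAS (higher), beside 8.65% of all genes (3.99% higher, 4.66% lower). For transfection it was called for 7 of 10, TNFRSF10A and FAS higher and TNFRSF11B, TNFRSF1A, TNFRSF1B, TNFRSF10B and TNFRSF21 lower, beside 35.5% of all genes (18.1% higher, 17.4% lower). The median interaction over the 10 genes was -0.16 for genotype and -0.41 for transfection on the log2 scale, beside -0.009 and 0.005 over all tested genes. In all, 43 of the 90 values were called, from 8 of 9 comparisons for TNFRSF21 and 7 for TNFRSF1A down to none for TNFRSF12A and CASP8.

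**Figure D2:**
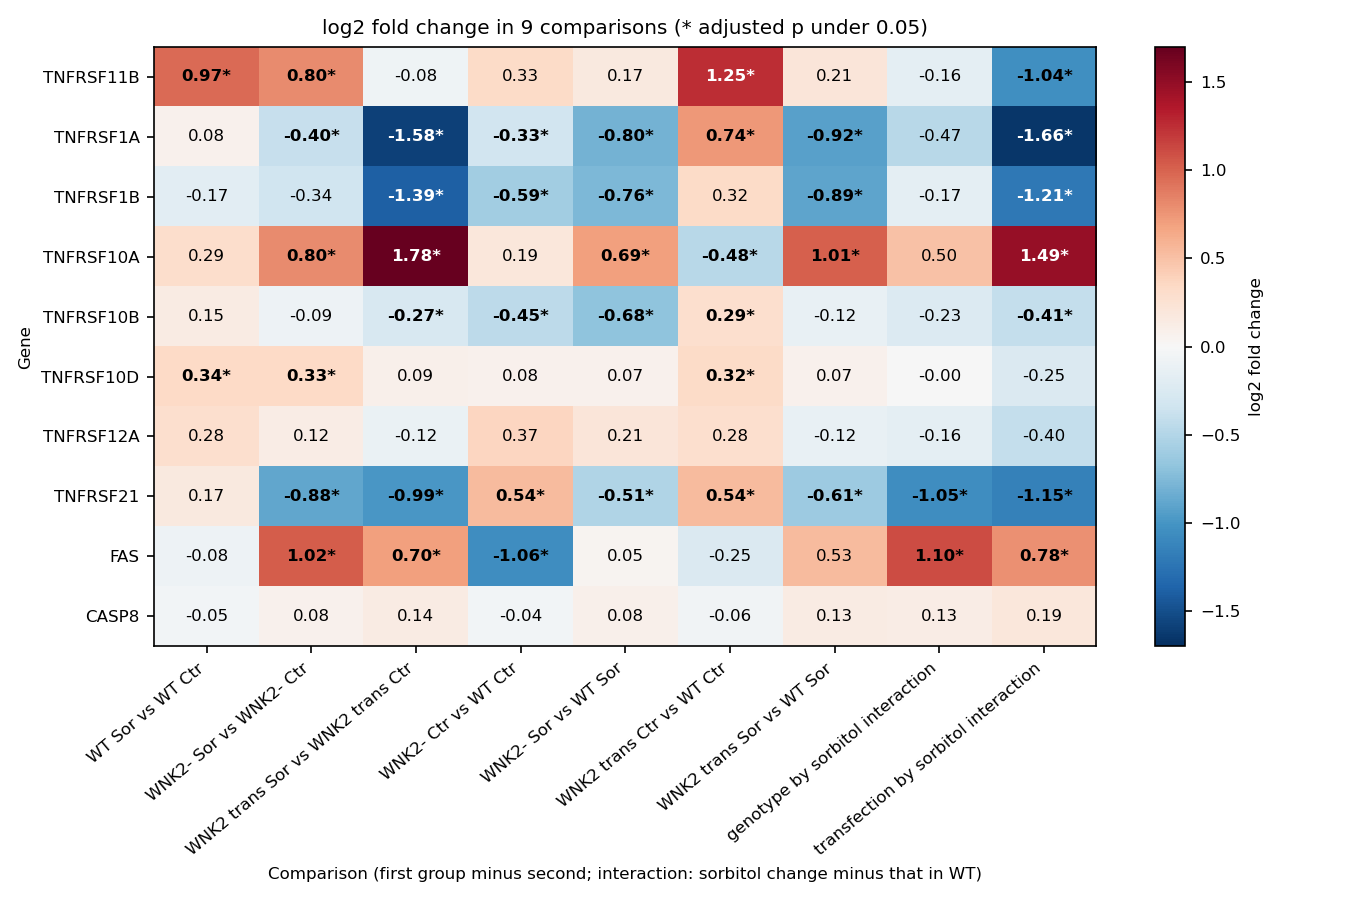
The log2 fold change of each gene (rows) in the 9 comparisons (columns), coloured from blue (lower) to red (higher), with an asterisk where the edgeR adjusted p was under 0.05. TNFRSF1A, TNFRSF1B and TNFRSF21 are blue and TNFRSF10A is red in the column of WNK2 trans Sor against WT Sor, and the rows of TNFRSF12A and CASP8 hold no asterisk.

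TNFRSF1A, TNFRSF1B and TNFRSF21 fell together in sorbitol in the libraries labelled WNK2 trans, so the letters before their start sites are shown for a view of the 3 promoters. Of the 10 genes, 5 had an entry in the RefSeq promoter table (GRCh38.p14). Printed are the 200 bases from 250 to 51 bases before the start, which is in chr12:6342127-6342326 (minus strand) for TNFRSF1A, chr1:12166741-12166940 (plus strand) for TNFRSF1B and chr6:47309956-47310155 (minus strand) for TNFRSF21. Capitals mark a match to the GC box GGGCGG, to the AP-1 site TGANTCA, to TGGAAA, the core of the element that the osmotic stress factor NFAT5 binds, or to an NF-kB site, on either strand.
TNFRSF1A: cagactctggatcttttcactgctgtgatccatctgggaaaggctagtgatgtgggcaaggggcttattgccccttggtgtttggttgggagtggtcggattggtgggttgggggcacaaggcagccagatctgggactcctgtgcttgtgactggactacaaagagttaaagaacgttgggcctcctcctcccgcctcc
TNFRSF1B: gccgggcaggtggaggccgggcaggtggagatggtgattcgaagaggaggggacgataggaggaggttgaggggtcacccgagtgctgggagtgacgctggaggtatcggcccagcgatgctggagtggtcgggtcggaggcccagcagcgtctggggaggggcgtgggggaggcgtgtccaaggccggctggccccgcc
TNFRSF21: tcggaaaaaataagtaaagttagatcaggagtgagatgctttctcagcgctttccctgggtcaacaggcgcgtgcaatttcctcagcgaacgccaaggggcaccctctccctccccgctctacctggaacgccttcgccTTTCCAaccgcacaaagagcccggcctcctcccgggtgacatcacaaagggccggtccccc
The only match in these windows was 1 copy of TGGAAA on the opposite strand of the TNFRSF21 window. Among the 35116 promoter windows of the same length in the table, 15.2% held TGGAAA, 35.0% the GC box, 5.3% the AP-1 site and 8.0% the NF-kB site. The windows held 55.5%, 70.5% and 58.5% G or C for TNFRSF1A, TNFRSF1B and TNFRSF21, beside a mean of 56.5% over the table.

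TNFRSF21 (death receptor 6, ENSG00000146072, GRCh38 chromosome 6, 47231532 to 47309905, minus strand) was called in 8 of 9 comparisons. Normalized counts were 2923, 3059, 2943 and 2782 in WT Ctr and 3216, 3356, 3287 and 3268 in WT Sor. In WNK2- Ctr they were 4192, 4306, 4155 and 4422, and in WNK2- Sor 2248, 2241, 2395 and 2363. Every WNK2- Ctr library lay above all WT libraries, and every WNK2- Sor library below them. Libraries labelled WNK2 trans Ctr had 4870, 4162, 3802 and 4173 and those labelled WNK2 trans Sor 2251, 2075, 2067 and 2191, again on either side of all WT libraries. The log2 fold change of WNK2- against WT cells was 0.54 (standard error 0.07, adjusted p = 1.1e-06) in isotonic medium and -0.51 (0.07, 2.24e-06) in sorbitol. Sorbitol lowered TNFRSF21 by a log2 fold change of -0.88 (0.07, 2.32e-09) in WNK2- cells and -0.99 (0.07, 3.68e-11) in those labelled WNK2 trans. In WT cells the change was 0.17 (0.07, 0.0941), with no overlap between the groups although it did not pass the test. The interactions were -1.05 (0.10, 1.88e-07) with genotype and -1.15 (0.10, 2.75e-09) with transfection. All 8 calls stood under every alternative run, and the corrected values for GC content and length were -1.07 and -1.15 for the interactions.

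TNFRSF1A (TNF receptor 1, ENSG00000067182, GRCh38 chromosome 12, 6328757 to 6342114, minus strand), the broadly expressed receptor that carries most of the response to soluble TNF, changed with sorbitol in the same directions outside WT cells. Its normalized counts were 4277, 3533, 3076 and 3660 in WT Ctr and 3901, 3773, 3683 and 3969 in WT Sor. They were 5438, 5641, 7384 and 5865 in libraries labelled WNK2 trans Ctr and 2534, 1686, 1754 and 2145 in those labelled WNK2 trans Sor. These 2 groups lay wholly above and wholly below all WT libraries. In WNK2- cells the counts were 3074, 2868, 2790 and 2829 without and 2025, 2372, 2226 and 2157 with sorbitol, all below those of WT cells in the same medium. Transfected libraries, by their labels, differed from WT by a log2 fold change of 0.74 (standard error 0.12, adjusted p = 6.05e-05) without and -0.92 (0.12, 1.32e-06) with sorbitol, an interaction of -1.66 (0.16, 2.09e-08). WNK2- cells differed from WT by -0.33 (0.12, 0.0231) without and -0.80 (0.12, 3.09e-06) with sorbitol. The genotype interaction of -0.47 (0.16, 0.0709) did not pass the test. The call in WNK2- Ctr was lost without WT Ctr replicate 1 (-0.25, adjusted p = 0.0962) and without WNK2- Ctr replicates 2, 3 or 4 (adjusted p = 0.0543 to 0.0595). The sorbitol change in WNK2- cells (-0.40, 0.0194) was lost without WNK2- Ctr replicate 1 (-0.38, 0.0571), WNK2- Sor replicate 1 (-0.36, 0.0727) or WNK2- Sor replicate 4 (-0.39, 0.0521).

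Fibroblast markers, summed over a list of 8 in which COL1A1 was the most abundant, were, like TNFRSF1A, highest in libraries labelled WNK2 trans Ctr and lower with sorbitol outside WT cells, although their lowest group was WNK2- Sor and that of TNFRSF1A was WNK2 trans Sor. They came to 5546 to 6728 CPM in libraries labelled WNK2 trans Ctr, 1115 to 1878 CPM in those labelled WNK2 trans Sor, 2678 to 3026 CPM in WNK2- Ctr and 969 to 1168 CPM in WNK2- Sor, and to 2797 to 4015 CPM in WT Ctr and 3726 to 3976 CPM in WT Sor. Of the 8 markers, 3 to 5 reached 1 CPM and THY1 was listed at 0 in every group. Their part in the result was not tested.

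TNFRSF1B (TNF receptor 2, ENSG00000028137, GRCh38 chromosome 1, 12167003 to 12209228, plus strand), which responds best to membrane-bound TNF, was far less abundant per length than TNFRSF1A in every group. Its normalized counts ran from 142 to 173 in WT Ctr and from 127 to 159 in WT Sor. They ran from 155.5 to 241 in libraries labelled WNK2 trans Ctr and from 45.2 to 99.2 in those labelled WNK2 trans Sor. In WNK2- cells they were 83.9 to 124 without and 76.7 to 86.9 with sorbitol. All libraries of the WNK2- groups and of WNK2 trans Sor thus lay below the lowest WT library of 127. The sorbitol change was -1.39 (standard error 0.19, adjusted p = 1.41e-06) in libraries labelled WNK2 trans, and the log2 fold change in sorbitol against WT cells was -0.89 (0.19, 0.000811) there and -0.76 (0.19, 0.00157) in WNK2- cells. In isotonic medium WNK2- cells differed from WT by -0.59 (0.18, 0.0116), and without WNK2- Ctr replicate 2 by -0.50 (adjusted p = 0.0504). The transfection interaction was -1.21 (0.26, 0.000782). With a correction for GC content and length it was -0.71 (adjusted p = 0.0127), and the difference in sorbitol from WT was -0.56 (0.00812) for WNK2 trans.

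**Figure D3:**
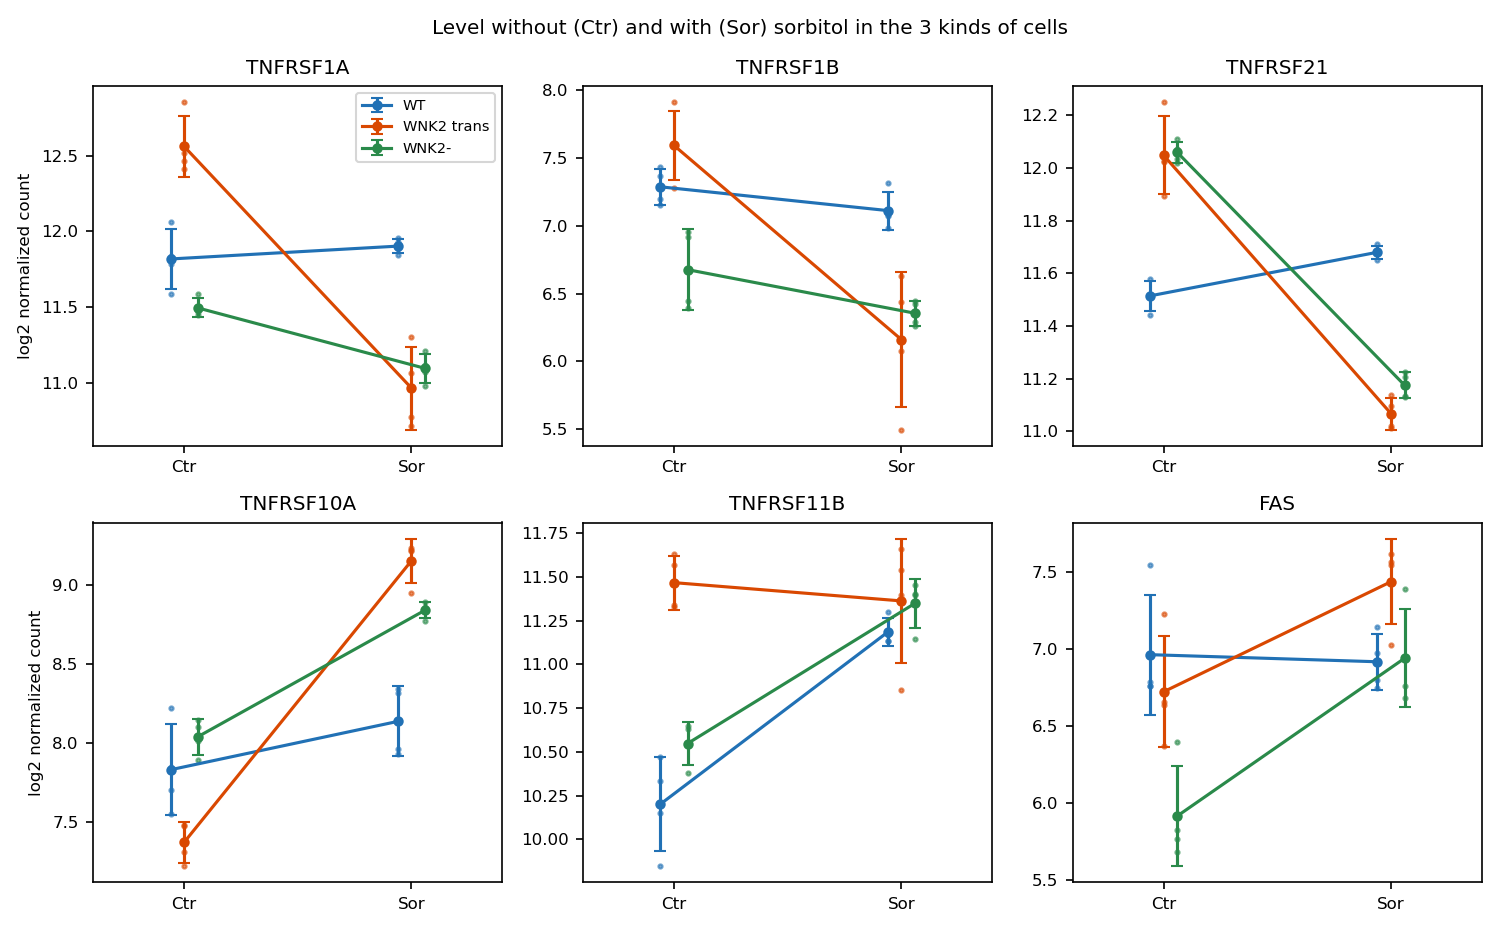
Log2 normalized counts (y axis) without (Ctr) and with (Sor) sorbitol in WT, WNK2 trans and WNK2- libraries, with the mean and SD of 4 libraries joined by lines and single libraries as small points. The y axes do not start at 0 and differ between panels. For TNFRSF21 the lines of WNK2 trans and WNK2- fall by 0.99 and 0.88 and cross the line of WT.

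The 3 membrane receptors of TNFSF10 (TRAIL) among the 10 genes lie in the same region of GRCh38 chromosome 8 and did not all move together. TNFRSF10A and TNFRSF10D both rose with sorbitol in WNK2- cells, where TNFRSF10B was not called. The 3 receptors differed in other comparisons. The receptors are TNFRSF10B (death receptor 5, ENSG00000120889, 23020133 to 23069179), TNFRSF10D (a decoy with a truncated death domain, ENSG00000173530, 23135588 to 23164030) and TNFRSF10A (death receptor 4, ENSG00000104689, 23190452 to 23225126), all on the minus strand. Other genes within 2 Mb, 36 or 37 tested ones for each, had a median log2 fold change of -0.08 for TNFRSF10A's neighbours and -0.10 for those of the other two under sorbitol in libraries labelled WNK2 trans. TNFRSF10A itself changed by 1.78 in that comparison. Exons of antisense and divergent transcripts (TNFRSF10A-AS1 and TNFRSF10A-DT) cover 16.6% of the exonic bases of TNFRSF10A in GENCODE 29, and with the strand setting of the counting not given, reads there cannot be assigned to one of them.

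TNFRSF10A had its highest levels in sorbitol in WNK2- and WNK2 trans libraries. Normalized counts were 209, 298, 230.4 and 187 in WT Ctr and 244, 319, 324 and 249 in WT Sor. In those labelled WNK2 trans Ctr the counts were 149, 179, 158.5 and 178, below every WT library, and in those labelled WNK2 trans Sor they were 493, 601, 596 and 595. WNK2- cells had 238, 284, 275 and 258 without and 465, 475, 458 and 437 with sorbitol. The 8 sorbitol libraries outside WT lay above all other libraries. Sorbitol raised TNFRSF10A by a log2 fold change of 1.78 (standard error 0.13, adjusted p = 4.25e-11) in libraries labelled WNK2 trans and by 0.80 (0.13, 5.85e-05) in WNK2- cells, and in WT cells the value was 0.29 (0.13, 0.1). In sorbitol the level exceeded that of WT by 1.01 (0.13, 1.11e-06) and 0.69 (0.13, 6.82e-05). The transfection interaction was 1.49 (0.18, 6.32e-07), and the genotype interaction of 0.50 (0.18, 0.0817) did not pass. The lower level in WNK2 trans Ctr than in WT Ctr, -0.48 (0.13, 0.0178), was lost without WT Ctr replicate 2 (-0.33, adjusted p = 0.115) and without WNK2 trans Ctr replicate 1 (-0.42, 0.0608). Without WT Ctr replicate 2 the sorbitol change in WT cells passed, with 0.44 (adjusted p = 0.0142). The summed level of 6 endothelial markers, of which 2 to 4 reached 1 CPM and none was at 0, also differed between groups. It was 99.4 to 107 CPM in WNK2 trans Sor and 27.2 to 42.9 CPM in WNK2 trans Ctr, 36.8 to 46.3 CPM in WNK2- Sor and 24.7 to 29.5 CPM in WNK2- Ctr, and 61.4 to 68.6 CPM in WT Sor and 37.4 to 43.5 CPM in WT Ctr. CDH5 had a mean of 1.15 CPM in WNK2 trans Ctr and 50.2 CPM in WNK2 trans Sor. PECAM1 went from 31.5 to 50.4 CPM there, and VWF and KDR, both under 1 CPM, were also higher. TEK (0.562 to 0.174 CPM) and CLDN5 (1.57 to 0.530 CPM) were lower. With sorbitol CDH5 went from 13.4 to 11.1 CPM in WNK2- cells and from 10.5 to 9.38 CPM in WT. The part of these markers in the result was not tested.

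TNFRSF10B separated WNK2- from all other libraries. It had 2116, 2312, 2133 and 2007 normalized counts in WT Ctr and 2382, 2467, 2338 and 2291 in WT Sor, and 1518, 1611, 1580 and 1582 in WNK2- Ctr and 1455, 1473, 1463 and 1535 in WNK2- Sor. The 8 WNK2- libraries lay below all others. The log2 fold change of WNK2- against WT was -0.45 (standard error 0.07, adjusted p = 1.21e-05) without and -0.68 (0.07, 1.23e-08) with sorbitol, and sorbitol itself changed it in WNK2- cells by -0.09 (0.07, 0.465). The libraries labelled WNK2 trans Ctr had 2526 to 2728 and those labelled WNK2 trans Sor 1968 to 2318. That is a difference from WT Ctr of 0.29 (0.07, 0.00553) in the former and a sorbitol change of -0.27 (0.07, 0.00264), an interaction of -0.41 (0.10, 0.00189). Fitted with only the groups compared, the first was 0.28 (adjusted p = 0.177) and the second -0.26 (0.054).

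TNFRSF10D moved little. Its normalized counts were 1055 to 1301 in WT Ctr and 1175 to 1282 in WNK2- Ctr, below the 1418 to 1546 of WT Sor, the 1491 to 1581 of WNK2- Sor and the 1396 to 1522 of libraries labelled WNK2 trans Ctr. WNK2 trans Sor libraries spread from 1280 to 1736 across these ranges. Sorbitol raised it by a log2 fold change of 0.34 (standard error 0.09, adjusted p = 0.0065) in WT and 0.33 (0.09, 0.00894) in WNK2- cells, and the level in WNK2 trans Ctr exceeded that of WT Ctr by 0.32 (0.09, 0.0142). The value in WNK2- cells was 0.21 (adjusted p = 0.032) with GC content and length corrected and 0.31 (0.0545) with no filter on low counts, and the difference of WNK2 trans Ctr from WT Ctr was 0.31 (0.161) with only those groups in the fit.

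TNFRSF11B (ENSG00000164761, GRCh38 chromosome 8, 118923557 to 118952200, minus strand), far from the other 3 on the same chromosome, had its lowest levels in untreated WT and WNK2- cells. Normalized counts were 921, 1291, 1420 and 1136 in WT Ctr and 1333, 1602, 1586 and 1481 in WNK2- Ctr. They rose to 2242, 2247, 2521 and 2304 in WT Sor and to 2701, 2264, 2801 and 2697 in WNK2- Sor, with no overlap in either case. Libraries labelled WNK2 trans Ctr had 3168, 2594, 2572 and 3034 without any sorbitol, and those labelled WNK2 trans Sor 1853, 3237, 2695 and 2970. The log2 fold change with sorbitol was 0.97 (standard error 0.14, adjusted p = 1.72e-05) in WT and 0.80 (0.14, 0.00015) in WNK2- cells, with a genotype interaction of -0.16 (0.19, 0.657). WNK2 trans Ctr exceeded WT Ctr by 1.25 (0.14, 5.37e-07), the sorbitol change in WNK2 trans was -0.08 (0.14, 0.653), and the transfection interaction was -1.04 (0.19, 0.000148). All 4 calls stood under every alternative run. After correction for GC content and length the sorbitol change in WNK2 trans was -0.35 (adjusted p = 0.00484), and the difference of WNK2- Ctr from WT Ctr went from 0.33 (0.0541) to 0.37 (0.00427). TNFSF11, the ligand it intercepts, was not among the tested genes.

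FAS (ENSG00000026103, GRCh38 chromosome 10, 88990582 to 89015785, plus strand), the receptor of FASLG, was lowest in untreated WNK2- cells. Normalized counts there were 51.2, 56.55, 54.3 and 84.1, below every other library except 1 of WNK2 trans Ctr at 82.7. With sorbitol they were 168, 102.5, 122 and 108 in WNK2- cells. In WT cells they were 108.5, 187, 108 and 110.2 without and 141.5, 107.5, 126 and 111 with sorbitol, so that WNK2- Sor overlapped both WT groups. Libraries labelled WNK2 trans had 99.5, 101, 149.6 and 82.7 without and 130, 187, 197 and 189 with sorbitol. The log2 fold change of WNK2- against WT was -1.06 (standard error 0.23, adjusted p = 0.000494) in isotonic medium and 0.05 (0.21, 0.88) in sorbitol. Sorbitol raised FAS by 1.02 (0.22, 0.00192) in WNK2- cells and by 0.70 (0.22, 0.00934) in libraries labelled WNK2 trans, although the latter groups overlapped. The genotype interaction was 1.10 (0.31, 0.0269), and its call was lost when any of 7 of the 16 libraries was left out: WT Ctr replicate 2 (0.85, adjusted p = 0.0814), WT Sor replicates 2 and 4, WNK2- Ctr replicates 1, 2 and 3, and WNK2- Sor replicate 1 (0.92, 0.0777). The transfection interaction of 0.78 (0.31, 0.0487) was lost without any of 10 of 16 libraries, with values of 0.53 (adjusted p = 0.16, without WT Ctr replicate 2) to 0.78. The others were WT Sor replicates 2 to 4, WNK2 trans Ctr replicates 1, 2 and 4, and WNK2 trans Sor replicates 2 to 4. It was also lost with no filter on low counts (0.74, 0.0732) and with GC content and length corrected (0.52, 0.15). Exons of ACTA2 cover 8.9% of the exonic bases of FAS, where reads cannot be assigned to one gene without the strand.

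CASP8 (ENSG00000064012, GRCh38 chromosome 2, 201233443 to 201287711, plus strand), the initiator caspase, was not called in any comparison. Its group means were 589 ± 94.0 to 650 ± 46.8 normalized counts (SD, n = 4), and all groups overlapped. The log2 fold changes lay between -0.06 and 0.19 with standard errors of 0.11 to 0.16.

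TNFRSF12A (the receptor of TWEAK, ENSG00000006327, GRCh38 chromosome 16, 3018445 to 3022383, plus strand) was also called in none, and its libraries spread widely inside groups. Normalized counts were 6242, 2350, 2913 and 4399 in WT Ctr and 7415, 2546, 3666 and 4198 in libraries labelled WNK2 trans Sor. The 4 WT Sor libraries had 4974, 5018, 4384 and 4998. The standard error of the sorbitol change in WT cells was accordingly 0.26 around a log2 fold change of 0.28 (adjusted p = 0.461). The spread moved with a measure of each library as a whole, the slope of its log2 CPM against the GC content of genes. That slope, in log2 units per 10 points of GC and relative to the mean of the 24 libraries, was 0.23, -0.23, -0.15 and 0.07 in the WT Ctr libraries in the same order. It was 0.12, -0.42, -0.22 and -0.18 in WNK2 trans Sor. Of the 36 pairs of libraries from the same group, 33 had TNFRSF12A and the slope in the same order. With GC content and length corrected, TNFRSF12A was higher in WNK2- than in WT cells without sorbitol (0.30, adjusted p = 0.0182) and with it (0.47, 0.000465), and higher in WNK2 trans Sor than in WT Sor (0.34, 0.012), where the uncorrected value was -0.12 (0.76). It was also higher in WNK2 trans Sor than in WNK2 trans Ctr (0.28, 0.025 against -0.12, 0.73). TNFRSF12A has 64.2% G or C in its longest transcript, the most of the 10 genes by that measure.

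The GC slope moved with some other members too. With no relation, about 18 of 36 pairs would be in the same order, and TNFRSF10B and CASP8 stood there. For TNFRSF1A (57.5% G or C) 33 of 36 within-group pairs were in the same order, for TNFRSF1B (59.5%) 24, for TNFRSF10B 18, for CASP8 19 and for FAS 14. For TNFRSF11B (42.5%) only 7 were in the same order and 29 not, and for TNFRSF10D 10, TNFRSF10A 11 and TNFRSF21 13. Libraries labelled WNK2 trans Sor had slopes of -0.42 to 0.12 and those labelled WNK2 trans Ctr 0.03 to 0.28, so the slope differed between groups as well. With the correction all but 1 of the 43 calls stood, the exception being FAS in the transfection interaction.

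**Figure D4:**
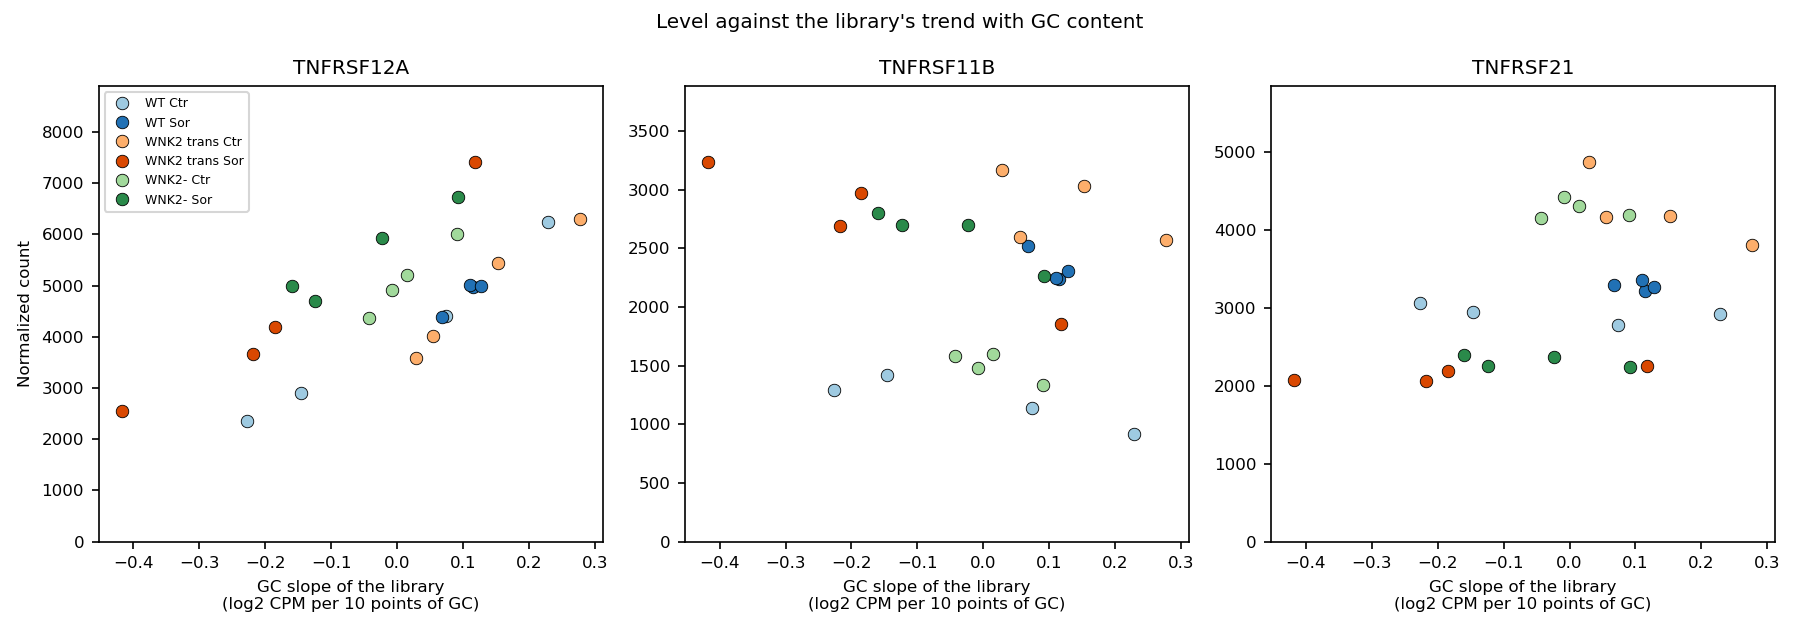
Normalized counts (y axis, from 0) of TNFRSF12A, TNFRSF11B and TNFRSF21 in 24 libraries against the slope of each library's log2 CPM with GC content (x axis, per 10 points of GC). Within a group TNFRSF12A climbs with the slope and TNFRSF11B mostly descends. TNFRSF21 separates WT from the other groups in each medium, where WNK2- and WNK2 trans overlap.

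**Figure D5:**
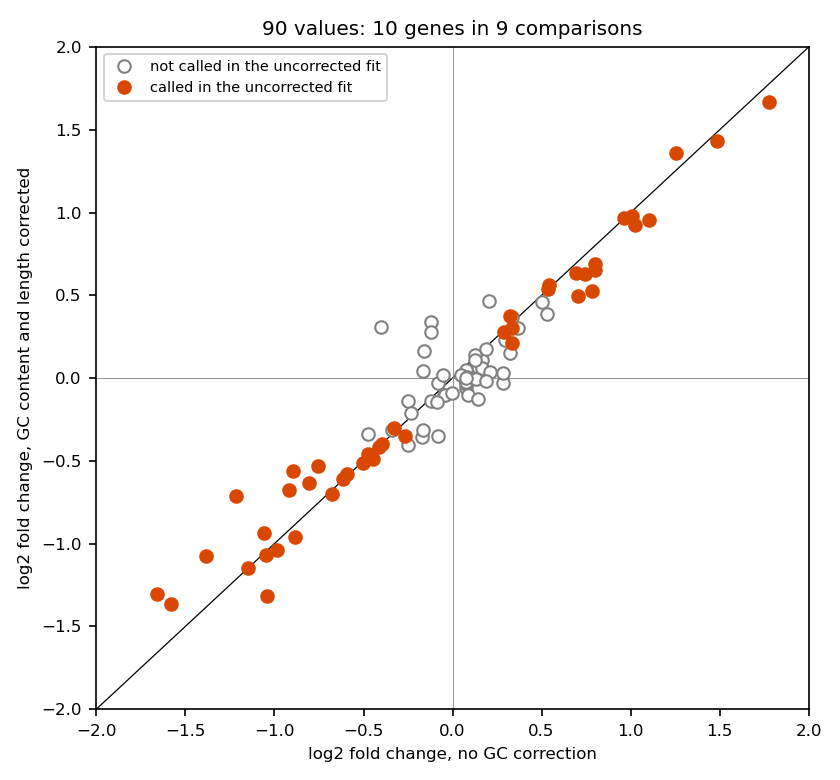
The 90 log2 fold changes without (x axis) and with (y axis) correction for GC content and length, filled where the uncorrected value was called. All 43 filled points keep their sign, and the largest fall toward 0 among the interactions is that of TNFRSF1B, from -1.21 to -0.71.

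The 6 groups were also ranked by mean for each gene, and neighbours in that order were compared. Of 50 neighbouring pairs 12 differed by the edgeR test, 3 each for TNFRSF1A and TNFRSF10A, 2 for TNFRSF21 and 1 each for TNFRSF11B, TNFRSF10B, TNFRSF10D and FAS. The ranking by the same counts picks the closest groups, so a low number of called steps follows from it. No share over all genes was computed for pairs ranked in this way. TNFRSF1A fell from WNK2 trans Ctr (6082 ± 885 normalized counts, SD, n = 4) to WT Sor (3832 ± 128), then without a called step to WT Ctr (3636 ± 495), and with called steps to WNK2- Ctr (2890 ± 126) and WNK2- Sor (2195 ± 145), from which WNK2 trans Sor (2030 ± 392) did not differ. TNFRSF21 held 3 levels, with WNK2- Ctr and WNK2 trans Ctr at the top (4269 ± 121 and 4252 ± 447), WT Sor and WT Ctr between, and WNK2- Sor and WNK2 trans Sor at the bottom (2312 ± 78.7 and 2146 ± 90.2). In sorbitol, WNK2- and WNK2 trans libraries differed in TNFRSF10A (log2 fold change of WNK2 trans over WNK2- 0.32, standard error 0.12, adjusted p = 0.0499) and TNFRSF10B, while TNFRSF1A, TNFRSF1B, TNFRSF11B, TNFRSF10D and TNFRSF21 stood next to each other with no called difference. For the pairs outside the 9 comparisons the test called 15.1% of all genes between WNK2 trans Ctr and WT Sor, 39.2% between WNK2 trans Sor and WT Ctr, 42.0% between WNK2- Ctr and WT Sor, and 47.7% between WNK2- Ctr and WNK2 trans Ctr. It called 37.3% between WNK2- Ctr and WNK2 trans Sor, 51.9% between WNK2- Sor and WT Ctr, 55.8% between WNK2- Sor and WNK2 trans Ctr, and 33.3% between WNK2- Sor and WNK2 trans Sor.

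Some of the 10 genes followed each other over the libraries. As a description over 24 libraries, which share group, depth and GC slope, Pearson's r of log2 CPM was 0.92 for TNFRSF1A with TNFRSF1B and 0.90 for TNFRSF11B with TNFRSF10D, and -0.90 for TNFRSF1A with TNFRSF10A. TNFRSF10D was the nearest of all well-expressed genes to TNFRSF11B, and TNFRSF11B to TNFRSF10D. The nearest genes to TNFRSF1A were STMN3, KANK2 and SNAI1 (r = 0.98, 0.97 and 0.97), those to TNFRSF21 PHF2, GABRE and COL5A1 (0.93, 0.92 and 0.91) and those to TNFRSF10A LPXN, ANTXR2 and PERP (0.96, 0.96 and 0.96). TNFRSF10B was most like TRIB2, HAS2 and PTPRO (0.97 each), TNFRSF1B like FBXW9, S1PR5 and CYBC1 (0.94, 0.93 and 0.93), FAS like FIG4, RRAGD and AIG1 (0.90, 0.88 and 0.88), and CASP8 like TTC1, ECD and ZBTB8OS (0.77, 0.76 and 0.75). TNFRSF12A was most like DDRGK1, DRAP1 and DOHH (0.96, 0.95 and 0.95).

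Ligands of the family were mostly low. Of 18, 8 were tested, and TNF, FASLG and TNFSF11 were not among them. TNFSF15, a ligand of TNFRSF25, rose with sorbitol by a log2 fold change of 1.05 in WT, 2.43 in WNK2- and 1.10 in WNK2 trans libraries, from 277 ± 41.5 to 575 ± 76.2, from 129 ± 29.5 to 694 ± 81.6 and from 388.5 ± 60.5 to 831 ± 104 normalized counts (SD, n = 4). TNFSF10, the ligand of the TRAIL receptors and named here after its values were seen, since it was too low for the naming rule, was lower in WNK2- than in WT cells by -2.39 (standard error 0.41, adjusted p = 4.29e-05) without and -3.25 (0.44, 1.2e-06) with sorbitol. Of 12 tested other receptors, 6 were lower and 2 higher in WNK2- Sor than in WT Sor, beside 22.7% and 23.7% of all genes. Among the lower ones were CD40 at -2.43 and TNFRSF19 at -1.47. LTBR, the lymphotoxin receptor, was lower in WNK2 trans Sor than in WT Sor (-0.69, adjusted p = 0.000602).

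Downstream of the receptors, CFLAR, the inhibitor that competes with CASP8 for the adaptor FADD, rose with sorbitol in WT (0.44, adjusted p = 0.00184), WNK2- (0.72, 6.45e-06) and WNK2 trans libraries (0.49, 0.000189). With GC content and length corrected it was called in neither WT (0.13, 0.564) nor WNK2 trans (0.06, 0.76). Among 10 tested genes of the death-inducing complex and its executioners, 1 rose and 3 fell in WT libraries with sorbitol. In WNK2- libraries 2 rose, and in WNK2 trans libraries 2 rose and 2 fell. These were 40%, 20% and 40% of the list, beside 24.1%, 14.9% and 48.0% of all genes. With GC content and length corrected, 0 rose and 3 fell in WT, 2 rose and 2 fell in WNK2-, and 0 rose and 4 fell in WNK2 trans libraries. Over all 16600 genes the corrected fit called 6084 in WT and 4353 in WNK2- cells. The adaptor FADD, named after its values were seen, was called in none of the comparisons (log2 fold changes of -0.49 to 0.24). Among 18 adaptors and ubiquitin ligases, 4 rose and 6 fell with sorbitol in WNK2 trans libraries, 55.6% beside the 48.0% of all genes. TRAF1 and BIRC3 rose by 1.38 and 1.75 (adjusted p = 2.11e-09 and 5.01e-07), and TRAF4 fell by 0.81 (2.02e-06). In WNK2- cells 1 of the 18 rose, CYLD by 1.07 (5.11e-05), and 2 fell, TRAF5 by 0.35 (0.0393) and TRAF3 by 0.30 (0.0346). That was 16.7% of the list, beside 14.9% of all genes. With GC content and length corrected, 4 of the 18 rose and 4 fell in WNK2- cells, and 4 rose and 7 fell in WNK2 trans libraries. MAP3K5, a kinase that links TNF receptors to JNK, was lower in WNK2- than in WT cells by -0.97 without and -1.63 with sorbitol (6.82e-07 and 5.82e-11). These lists were chosen with results of the same data known, and their counts stand beside the shares of all genes given above.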

How the data were processed

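RNA from T/C-28a2 cells was sequenced as poly(A)-selected libraries. Per the labels and the submitters' processing notes, the authors checked reads with FastQC 0.11.9, aligned them to GRCh38 with HISAT2 2.2.1 and counted reads per gene with HTSeq 2.0.2, and the deposited values are raw counts, 1 file per library. DESeq2 1.38.3 is also named there. The annotation release and the strand setting are not given in the sources used here. The files hold 62703 Ensembl identifiers, of which 62625 had a symbol and 58279 a GENCODE 29 position.

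Counts were tested with edgeR 4.0.16 (R 4.3.3) in 1 quasi-likelihood fit of the 6 group means over 24 libraries, after TMM normalization and filterByExpr (minimum count 10, minimum total 15), which left 16600 genes. Adjusted p-values are Benjamini-Hochberg values over all of these, called under 0.05. Standard errors were taken from the log2 fold change and its F statistic. Normalized counts were scaled to the mean effective library size. Total counts were 14153002 to 25664619 per library (median 17506505.5). The p-values measure only the spread between these libraries, which the study calls biological replicates. Tests were first checked on simulated counts.

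Alternatives were DESeq2 1.42.0, RLE size factors, no filter, no library under 10 counts, a fit of only the groups compared, a replicate block, a correction of offsets for GC content and length (splines with 5 degrees of freedom), a minimum log2 change of 0.3 (glmTreat), and leaving out each library. The same correction of the other gene lists was chosen after seeing the data. The 10 genes and all lists were chosen with earlier results of these data known. All 10 are described. From the other lists (receptors, ligands, death-inducing complex, adaptors, mitochondrial apoptosis and p53 targets), at most 4 called genes per list and comparison could be named, those with the largest change, provided their log2 CPM averaged 1 or more. Likeness used genes averaging 3 or more on that scale (prior count 2). Replicate pairs differed by more than counting noise, so no library was counted as a repeat of another. 1 gene of the other lists is not reported here.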

Additional observations from a re-analysis of the deposited data

Results flagged for a closer look

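In 5 of the 60 groups of 4 libraries (10 genes in 6 groups), 1 library stood apart from the other 3 by Dixon's 95% criterion, which chance alone meets in about 1 of 20 groups. TNFRSF10A had 493.4 normalized counts in WNK2 trans Sor replicate 1, the lowest of its group. TNFRSF12A had 4384 in WT Sor replicate 3, also the lowest. FAS stood apart in 3 groups, with 187.1 in WT Ctr replicate 2 and 84.13 in WNK2- Ctr replicate 4 as the highest values and 130 in WNK2 trans Sor replicate 1 as the lowest.

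The sorbitol change differed from that in WT cells by the edgeR interaction test for several genes, in log2 units. With genotype it differed for TNFRSF21 (-1.0499) and FAS (1.1043). In libraries labelled WNK2 trans it differed for TNFRSF11B (-1.0444), TNFRSF1A (-1.659), TNFRSF1B (-1.2138), TNFRSF10A (1.4853), TNFRSF10B (-0.4117), TNFRSF21 (-1.1515) and FAS (0.7819). These rest on labels that WNK2 went against in 2 groups, with a mean of 302.5 normalized counts in libraries labelled WT Sor and 252 in those labelled WNK2 trans Ctr, beside 2520 in WT Ctr and 3033 in WNK2 trans Sor.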

How the results depend on the processing

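Of the 43 called values, 31 stayed called in every alternative run, 12 lost the call in at least 1 and none turned its direction. The cause of each change was not tested. The smaller counts with a minimum change follow from the stricter criterion. The lowest raw counts per library were 45 for TNFRSF1B and 54 for FAS, where counting error is largest among the 10 genes.

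With a minimum log2 change of 0.3 the number of the 10 genes called was 1 for WT Sor against WT Ctr, 3 for WNK2- Ctr against WT Ctr, 3 for WNK2 trans Ctr against WT Ctr and 1 for the genotype interaction. Over all genes it was then 1421, 4378 and 804 in those first 3, 2642 for WNK2 trans Sor against WT Sor, 1018 and 5310 for sorbitol in WNK2- and WNK2 trans libraries, and 522 for the genotype interaction. With at least 10 counts in every library 4 of the 10 were called for WT Sor against WT Ctr. The number over all genes with that filter is not given here. With only the groups compared, WNK2 trans Ctr against WT Ctr had 3 of the 10 and 747 genes, and sorbitol in WNK2- cells 4824 genes. With GC content and length corrected, 6084 genes were called for sorbitol in WT, 4353 in WNK2- cells and 2307 for the genotype interaction. Leaving out 1 library gave 3 to 6 of the 10 genes for WNK2- Ctr against WT Ctr (3 without WNK2- Ctr replicate 2). For the genotype interaction it gave 1 to 3 of the 10 and 849 to 1908 genes, with 849 without WNK2- Sor replicate 3 and 944 without WNK2- Ctr replicate 2.

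Values that were not called turned sign as follows. With GC content and length corrected, sorbitol in WT gave -0.062 for TNFRSF1A and -0.027 for TNFRSF12A, WNK2- Sor against WT Sor -0.038 for TNFRSF10D, and WNK2 trans Ctr against WT Ctr 0.016 for CASP8. WNK2 trans Sor against WT Sor gave -0.027 for TNFRSF10D, 0.34 for TNFRSF12A and -0.0045 for CASP8, and against WNK2 trans Ctr -0.10, 0.28 and -0.13 for the same genes. The genotype interaction was 0.043 for TNFRSF1B and 0.16 for TNFRSF12A, and the transfection interaction 0.31 for TNFRSF12A and -0.021 for CASP8. For TNFRSF10D the genotype interaction was 0.0071 with DESeq2, 0.007 with RLE size factors and 4e-04 with only the groups compared.

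Leaving out 1 library at a time turned the sign of these uncalled values: FAS for sorbitol in WT (-0.16 to 0.16) and for WNK2- Sor against WT Sor (-0.13 to 0.13), and CASP8 for sorbitol in WT (-0.12 to 0.048), WNK2- Ctr against WT Ctr (-0.12 to 0.044) and WNK2 trans Ctr against WT Ctr (-0.17 to 0.039). It did so for TNFRSF12A in WNK2 trans Sor against WT Sor (-0.50 to 0.071), against WNK2 trans Ctr (-0.49 to 0.077) and in the genotype interaction (-0.47 to 0.011). TNFRSF11B ran from -0.19 to 0.047 for sorbitol in WNK2 trans, and TNFRSF10D from -0.074 to 0.032 in the genotype interaction.

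Libraries of the same number did not deviate together over the groups as a whole (median r = 0.013 over 60 pairs, 10 of them over 0.1). For libraries of other numbers the median was 0.001 over 180 pairs, 24 of them over 0.1. Between WT Ctr and WNK2 trans Sor, however, all same-number pairs were positive (r = 0.458, 0.256, 0.122 and 0.056). These groups were singled out by their values. Over all groups, pairs of other numbers reached r = 0.395, and same-number pairs went down to -0.287. A median over all groups cannot decide whether some groups were paired or handled together. With a replicate block the call of FAS in the transfection interaction was lost (0.78, edgeR adjusted p = 0.0653), while TNFRSF11B in WNK2- Ctr against WT Ctr (0.34, 0.048) and TNFRSF10A in the genotype interaction (0.51, 0.0487) passed. The block gave 2 to 6 of the 10 genes per comparison, beside 2 to 7 without it, and its numbers over all genes are not given here.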

Other observations

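Among genes of the mitochondrial pathway, 14 of 18 were tested, and 3 were higher and 7 lower in WNK2- Sor than in WT Sor, where 46.3% of all genes were called. Called shares with sorbitol in WT, WNK2- and WNK2 trans libraries were 21.4%, 14.3% and 42.9%, beside 24.1%, 14.9% and 48.0% of all genes. In WNK2- Ctr against WT Ctr it was 50%, beside 42.1%. WNK2 trans Ctr and WNK2 trans Sor against WT had 7.14% and 28.6%, beside 12.5% and 31.7%. The genotype and transfection interactions had 14.3% and 35.7%, beside 8.65% and 35.5%. Among p53 target genes, 16 of 18 were tested, and 5 rose and 2 fell with sorbitol in libraries labelled WT, where 24.1% of all genes were called (11.4% higher, 12.7% lower). With sorbitol 25% of the list was called in both WNK2- and WNK2 trans libraries, beside 14.9% and 48.0% of all genes. In WNK2- against WT cells 31.2% was called without and 43.8% with sorbitol, beside 42.1% and 46.3%. WNK2 trans Ctr and WNK2 trans Sor against WT had 25% and 18.8%, beside 12.5% and 31.7%. The genotype and transfection interactions had 18.8% and 25%, beside 8.65% and 35.5%. With GC content and length corrected, 4 mitochondrial genes were higher and 7 lower in WNK2- Sor than in WT Sor. Of the p53 targets, 6 then rose and 3 fell with sorbitol in WT. These lists were chosen with results of the same data known, and no explanation was tested.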
